A study of Homo sapiens with 18 samples.

Results

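The collagen-modifying and processing enzymes described here are 10 genes, taken by symbol from a gene count table of 25433 distinct symbols: the lysyl hydroxylases PLOD1, PLOD2 and PLOD3, the prolyl 4-hydroxylase subunits P4HA1 and P4HA2, the lysyl oxidases LOX, LOXL1 and LOXL2, the procollagen proteinase BMP1 and its enhancer PCOLCE. All 10 had a row, and all 10 passed the filter on low counts in each of the 10 comparisons made. The study asked how ERN2 (IRE1β), an endoplasmic reticulum (ER) stress sensor of mucosal epithelia, takes part in the unfolded protein response. Its RNA-Seq comprised 18 libraries of HEK293doxERN2 cells, a human embryonic kidney line with a FLAG-tagged ERN2 transgene under a doxycycline-inducible promoter. Over 24 hours the cells were left without doxycycline (0 ng/mL) or given 10 or 100 ng/mL of it, here called no, low and high ERN2. At each dose 3 libraries came from cells given DMSO (control) and 3 from cells given 200 nM thapsigargin (stress), which blocks the ER calcium pump, for 3 hours. Each of the 6 groups thus held 3 libraries of the same line, and no line without the transgene was given doxycycline, so the drug and ERN2 cannot be told apart. Nothing states that replicates were separate cultures, so p-values measure only the spread between these libraries, which may be technical.

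Collagen chains are modified while still in the ER. Prolyl 4-hydroxylase stabilises the triple helix, and lysyl hydroxylases prepare lysines for glycosylation and crosslinking. Outside the cell BMP1 removes the C-propeptide of fibrillar procollagens, with PCOLCE as its enhancer, and lysyl oxidases deaminate lysines of collagen and elastin so that crosslinks form.

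Levels are given as CPM, the reads on a gene relative to the size of its library after TMM (trimmed mean of M values) scaling over all 18 libraries, whose totals ran from 14876416 to 24652240 reads. ERN2 itself served as a check of the labels and stood at 9.1, 6.57 and 7.71 CPM in the no ERN2 control libraries, 22.5, 27.1 and 55.9 at low and 252, 309 and 249 at high ERN2. Under stress it stood at 14.2, 10.4 and 12.0, then 32.1, 53.9 and 112, then 272, 175 and 175 CPM, so the groups of each treatment did not overlap. One protocol label names colon crypt epithelium as the RNA source. The colon markers CDX1, MUC2, KRT20 and VIL1 had at most 5 reads in any library, and CDX2, LGR5 and EPCAM lay between 3.36 and 35.5 CPM. Of 4 markers taken for HEK293 cells, NEFL, a neurofilament gene, lay between 66.5 and 123 CPM. The others were lower: NEFM lay between 16.4 and 31.2 CPM, LHX1 between 14.1 and 33.1 and PAX2 between 1.2 and 4.35. Of the fibroblast markers, COL1A2, DCN and THY1 had at most 6 reads in any library, LUM at most 20 and PDGFRA at most 39, while COL3A1 reached 6.15 CPM and COL1A1 lay between 9.98 and 27.8 CPM. Replicates of each group differed by more than sampling noise, with a chi-square of 7.33 to 63.8 per degree of freedom. In bulk libraries such as these, fewer cells expressing a gene and less RNA per cell cannot be told apart.

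A difference is called where the edgeR quasi-likelihood test gave a Benjamini-Hochberg adjusted p under 0.01 over all genes tested. At high ERN2 in control cells 5 of the 10 genes were lower and 0 were higher: PLOD2, PLOD3, LOXL1, LOXL2 and BMP1, with log2 fold changes of -0.55 to -1.54. The background for that count is 7.49% of 14444 genes called lower. In stressed cells 7 of the 10 were lower and 0 higher (PLOD1, PLOD3, P4HA2, LOX, LOXL1, LOXL2 and BMP1), with log2 fold changes of -0.86 to -1.84, where 9% of 14358 genes were called lower. PLOD3, LOXL1, LOXL2 and BMP1 were in both sets, which come from separate libraries of the same line, not known to be separate cultures.

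**Figure D1:**
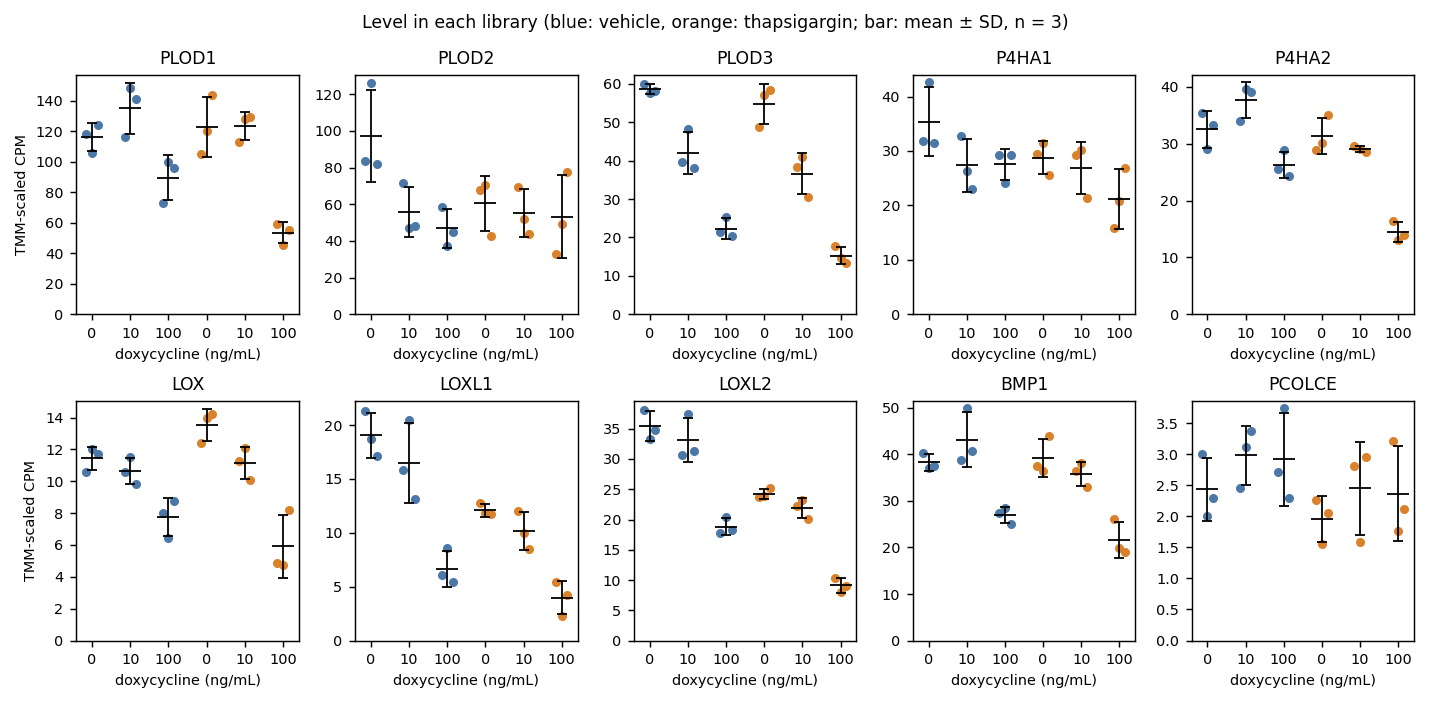
Level of each of the 10 genes in every library in TMM-scaled CPM (vertical axis, starting at 0) by doxycycline dose in ng/mL, for vehicle (blue) and thapsigargin (orange), with the mean and SD of 3 libraries. PLOD3, LOXL1 and LOXL2 were lowest at 100 ng/mL under both treatments, whereas the PLOD2 libraries at 100 ng/mL with thapsigargin spread from 32.6 to 77.7 CPM.

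Levels were compared between genes only as CPM per kilobase of the APPRIS principal transcript in GENCODE 29, the longest where there were several. In no ERN2 control cells the order was PLOD1 (39.5 ± 3.12 CPM per kb, SD, n = 3), PLOD2 (26.1 ± 6.68), PLOD3 (20.1 ± 0.44), P4HA1 (12.4 ± 2.23), LOXL2 (9.97 ± 0.692), P4HA2 (9.72 ± 0.974), BMP1 (9.05 ± 0.418), LOXL1 (8.1 ± 0.902), LOX (2.24 ± 0.144) and PCOLCE (1.43 ± 0.3). The libraries of neighbours in this order overlapped only among LOXL2, P4HA2, BMP1 and LOXL1. Under stress at high ERN2 the order became PLOD1 (18.1 CPM per kb), PLOD2 (14.3), P4HA1 (7.44), PLOD3 (5.24), BMP1 (5.12), P4HA2 (4.32), LOXL2 (2.58), LOXL1 (1.7), PCOLCE (1.39) and LOX (1.16). In this second order only P4HA2 and LOXL2 were neighbours whose libraries did not overlap. PLOD3, LOXL2 and LOX each stood at a later place in it than in no ERN2 control cells, which differ in treatment as well as dose. Under stress without ERN2, LOXL2 (6.84 CPM per kb) already stood below P4HA2 (9.37) and BMP1 (9.29). PLOD3 (18.8) stood above PLOD2 (16.2) there, and LOX (2.65) above PCOLCE (1.15).

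Among the lysyl hydroxylases, PLOD3 also carries glycosyltransferase activity and adds sugars to the hydroxylysines it makes. In GENCODE 29 (GRCh38) it spans chromosome 7, minus strand, 101205977 to 101218420, where 753 bases are shared with ZNHIT1 on the other strand. IRE1 enzymes are known to cleave RNA at the core CUGCAG within a stem-loop, and the DNA letters CTGCAG, which are their own reverse complement, were therefore searched in the annotated transcripts. PLOD3 held 5 matches, all in coding sequence, and 15.6% of 1468 genes of similar length held as many. The windows that lie within a single coding exon are shown for PLOD3 together with that of PLOD1, the most abundant member of its family, with the match in capitals.
PLOD3 exon 4, chr7:101216217-101216276, minus strand: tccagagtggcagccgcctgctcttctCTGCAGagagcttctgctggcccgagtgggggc
PLOD3 exon 9, chr7:101212560-101212619, minus strand: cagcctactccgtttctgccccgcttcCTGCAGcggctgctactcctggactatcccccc
PLOD3 exon 11, chr7:101211848-101211907, minus strand: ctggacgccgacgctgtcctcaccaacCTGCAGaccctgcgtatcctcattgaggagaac
PLOD3 exon 17, chr7:101207611-101207670, minus strand: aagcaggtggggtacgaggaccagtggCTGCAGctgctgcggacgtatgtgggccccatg
PLOD1 exon 13, chr1:11964684-11964743, plus strand: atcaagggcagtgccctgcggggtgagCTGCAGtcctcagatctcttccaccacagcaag

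The core was present in 85.9% of 12747 genes tested and thus sets few genes apart. PLOD1 held 3 matches, PLOD2 1, P4HA1 2, P4HA2 4, LOX 0, LOXL1 1 outside its coding sequence, LOXL2 3, BMP1 3 and PCOLCE 1. LOXL1, with 1 match, and PLOD3, with 5, had the lowest log2 fold changes of the 10 genes at high ERN2 in control cells. LOX, with 0, and P4HA2, with 4, were not called there. Whether the number of matches goes with the change was not tested. A match to these letters does not show a cleaved site, and cleavage was not measured.

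In control cells PLOD3 stood at 60.1, 57.7 and 58.1 CPM without ERN2, 39.6, 48.3 and 38.0 at low and 21.4, 25.3 and 20.3 at high ERN2. The 3 groups did not overlap and followed the order of the dose. Under stress PLOD3 stood at 48.8, 57.1 and 58.5 CPM without ERN2, 38.4, 40.9 and 30.6 at low and 17.9, 14.6 and 13.4 at high ERN2, again without overlap. At high against no ERN2 its log2 fold change was -1.43 (SE 0.127, adjusted p = 7.36e-06) in control cells, or 2.70-fold lower, and -1.84 (SE 0.171, adjusted p = 1.61e-05) under stress, or 3.58-fold lower. PLOD3 was called in each of the 11 alternative fits of both comparisons.

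PLOD1 (chromosome 1, plus strand, 11934205 to 11975538) is the enzyme for helical lysines and shares no bases with another annotated gene. Its control libraries held 118, 106 and 124 CPM without ERN2, 116, 148 and 141 at low and 72.9, 100 and 96 at high ERN2. High ERN2 lay below both other groups, but its log2 fold change against no ERN2, -0.41 (SE 0.135), was not called (adjusted p = 0.064). With thapsigargin the libraries held 105, 120 and 144 CPM, then 113, 128 and 129, then 58.9, 45.6 and 55.5. There PLOD1 fell 2.31-fold at high ERN2 (log2 fold change -1.21, SE 0.157, adjusted p = 0.000172).

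PLOD2 hydroxylates lysines of the telopeptides and spans chromosome 3, minus strand, 146069440 to 146163653, where 35765 bases are shared with the antisense gene AC107021.1. Together with P4HA1 and LOX it is a known target of hypoxia-inducible factors, so the 250 bases before the RefSeq start site of each (GRCh38.p14) are shown, with matches to the hypoxia core ACGTG on either strand in capitals.
PLOD2, chr3:146161185-146161434, minus strand: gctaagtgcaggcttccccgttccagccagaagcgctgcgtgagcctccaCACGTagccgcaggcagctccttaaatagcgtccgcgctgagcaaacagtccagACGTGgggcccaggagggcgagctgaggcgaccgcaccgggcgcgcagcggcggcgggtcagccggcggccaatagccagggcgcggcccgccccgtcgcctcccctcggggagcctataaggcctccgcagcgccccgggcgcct
P4HA1, chr10:73096867-73097116, minus strand: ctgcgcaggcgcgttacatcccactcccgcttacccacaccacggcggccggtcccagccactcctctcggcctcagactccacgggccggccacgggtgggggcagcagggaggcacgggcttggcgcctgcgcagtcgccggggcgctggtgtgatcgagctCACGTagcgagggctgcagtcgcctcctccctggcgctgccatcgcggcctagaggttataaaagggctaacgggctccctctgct
LOX, the most upstream of its 3 start sites, chr5:122078260-122078509, minus strand: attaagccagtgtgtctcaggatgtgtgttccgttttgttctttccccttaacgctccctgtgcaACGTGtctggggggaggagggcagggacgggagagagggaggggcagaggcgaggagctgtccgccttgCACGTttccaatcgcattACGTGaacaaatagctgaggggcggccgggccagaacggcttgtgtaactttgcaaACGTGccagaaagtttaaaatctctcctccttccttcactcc

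PLOD2 had 2 matches, P4HA1 1 and this LOX start 4, and the core occurred in 21.4% of 35116 RefSeq promoter windows that run to 50 bases past the start. Of the 8 members with an entry, PLOD1, PLOD3, P4HA2, LOXL1 and PCOLCE had 0 matches, which does not show that they are not targets of hypoxia-inducible factors. The cores of 3 other elements were searched on both strands as well: the UPR element core TGACGTGG (in 0.729% of promoters), the ER stress element named ERSE (in 0.0769%) and the cyclic AMP element TGACGTCA (in 1.85%). None of the 8 members' windows held these letters, which says nothing about binding of a factor.

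In control cells PLOD2 stood at 83.6, 126 and 82.1 CPM without ERN2, 71.6, 47.3 and 48.4 at low and 58.4, 37.0 and 45.1 at high ERN2. Both induced groups lay below the uninduced one and overlapped with each other. High ERN2 gave a log2 fold change of -1.10 (SE 0.189, adjusted p = 0.00144), or 2.14-fold lower. With thapsigargin the libraries stood at 67.9, 70.5 and 42.9, then 69.4, 51.8 and 43.8, then 32.6, 49.5 and 77.7 CPM. All 3 stressed groups overlapped, and the log2 fold change at high ERN2 was -0.20 (SE 0.278, adjusted p = 0.653), with an interval of 2 standard errors from -0.75 to 0.36. Its highest library at high ERN2 under stress, replicate 3, was the lowest of the 3 for PLOD3.

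Ratios of read counts within a library do not depend on scaling, and 5 ratios between paralogues were formed after the levels had been seen. The ratio of PLOD3 to PLOD1 was 0.511, 0.545 and 0.469 in no ERN2 control libraries, 0.34, 0.326 and 0.27 at low and 0.293, 0.252 and 0.211 at high ERN2. Under stress it was 0.463, 0.475 and 0.407, then 0.339, 0.321 and 0.236, then 0.304, 0.32 and 0.242. Each induced group lay below its uninduced group, and each exact two-sided permutation test gave p = 0.1, the smallest that 3 against 3 libraries allow. The ratio of LOXL1 to LOX was 2.02, 1.56 and 1.46 without ERN2 and 0.753, 1.33 and 0.618 at high ERN2 in control cells (exact permutation p = 0.1). Under stress it overlapped, at 1.03, 0.84 and 0.823 without ERN2 and 1.11, 0.493 and 0.516 at high ERN2 (exact permutation p = 0.4). The ratio of LOXL2 to LOX overlapped at high ERN2 under both treatments and was higher at low than at no ERN2 under stress, at 1.95, 1.92 and 1.99 against 1.91, 1.7 and 1.78 (exact permutation p = 0.1). For PLOD2 to PLOD1, the stressed libraries gave 0.644, 0.587 and 0.299 without ERN2 and 0.554, 1.09 and 1.4 at high ERN2, which overlapped. In control cells this ratio was 0.71, 1.19 and 0.662 without ERN2. It was lower at low ERN2, at 0.616, 0.319 and 0.344 (exact permutation p = 0.1), and overlapped at high ERN2, at 0.8, 0.368 and 0.469 (p = 0.3). Because these ratios were picked with the levels known, they describe unequal change between paralogues in these libraries and support nothing further.

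**Figure D2:**
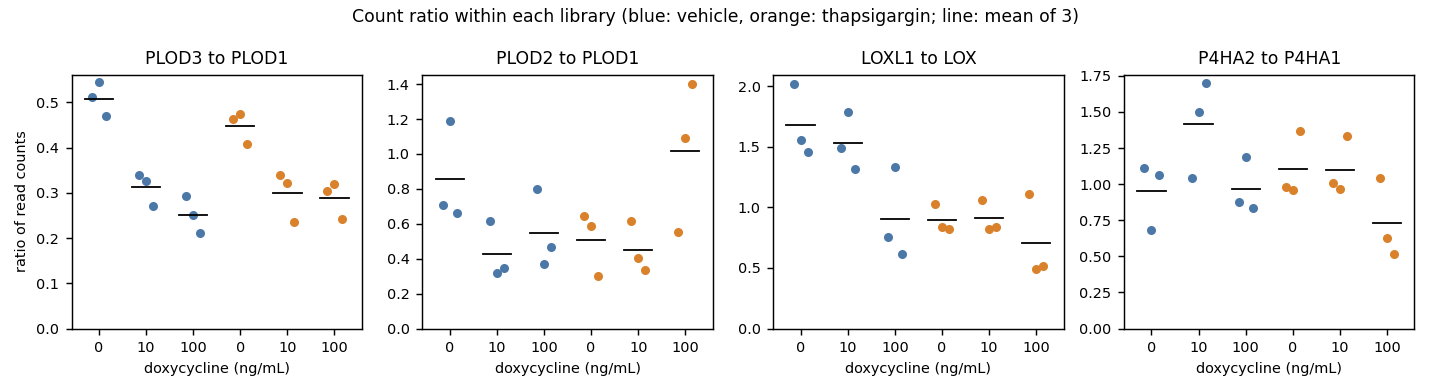
Ratio of read counts of 4 pairs of paralogues in each library (vertical axis, starting at 0) by doxycycline dose in ng/mL, for vehicle (blue) and thapsigargin (orange), with a line at the mean of 3 libraries. PLOD3 to PLOD1 was lower at 10 and at 100 ng/mL than at 0 ng/mL under both treatments, and P4HA2 to P4HA1 overlapped between each induced group and its uninduced group.

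P4HA1 and P4HA2 encode catalytic subunits of prolyl 4-hydroxylase and lie on the minus strands of chromosome 10 (73007217 to 73096974) and chromosome 5 (132191838 to 132295315). The P4HA1 span shares 2714 bases with the antisense gene AL731563.2. The P4HA2 span shares 15784 bases with PDLIM4 on the other strand, and whether reads were counted by strand is not given in the sources used here. P4HA2 stood at 35.4, 29 and 33.3 CPM without ERN2, 34.0, 39.7 and 39.2 at low and 25.6, 28.9 and 24.4 at high ERN2 in control cells. High ERN2 lay below both other groups by a narrow margin, and the log2 fold change of -0.35 (SE 0.132, adjusted p = 0.103) was not called. With thapsigargin P4HA2 stood at 28.9, 30.2 and 35, then 29.6, 29 and 28.5, then 16.4, 13.1 and 13.9 CPM. It fell 2.17-fold there at high ERN2 (log2 fold change -1.12, SE 0.167, adjusted p = 0.000492), a call made in all 11 alternative fits.

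P4HA1 stood at 31.9, 42.7 and 31.5 CPM, then 32.7, 26.4 and 23.1, then 29.2, 24.2 and 29.2 in control cells, with no, low and high ERN2 in that order. With thapsigargin it stood at 29.5, 31.4 and 25.5, then 29.2, 30.1 and 21.3, then 15.8, 20.9 and 26.8 CPM. Only the high ERN2 control libraries lay apart from their uninduced group, all below it. P4HA1 was called in none of the 10 comparisons, with log2 fold changes at high ERN2 of -0.40 (SE 0.147, adjusted p = 0.0918) in control and -0.45 (SE 0.202, adjusted p = 0.13) in stressed cells.

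LOX, the founding lysyl oxidase, spans chromosome 5, minus strand, 122063195 to 122078360, of which 12376 bases are shared with SRFBP1 on the other strand. It stood at 10.6, 12.0 and 11.7 CPM without ERN2, 10.6, 11.5 and 9.85 at low and 8.03, 6.43 and 8.77 at high ERN2. The high ERN2 libraries lay below the rest, with a log2 fold change against no ERN2 of -0.61 (SE 0.160, adjusted p = 0.0229) that was not called. With thapsigargin LOX stood at 12.4, 14.0 and 14.2, then 11.3, 12.1 and 10.1, then 4.86, 4.72 and 8.21 CPM. It fell 2.28-fold at high ERN2 under stress (log2 fold change -1.19, SE 0.229, adjusted p = 0.00276).

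LOXL1, which is needed for elastic fibre upkeep, spans chromosome 15, plus strand, 73925989 to 73952137, where 2260 bases are shared with the antisense gene LOXL1-AS1. Its control libraries stood at 21.3, 18.7 and 17.1 CPM without ERN2, 15.8, 20.5 and 13.1 at low and 6.05, 8.57 and 5.42 at high ERN2. Low ERN2 overlapped with no ERN2, and high ERN2 lay well below both. With thapsigargin LOXL1 stood at 12.8, 11.8 and 11.7, then 12.0, 10.0 and 8.5, then 5.41, 2.32 and 4.23 CPM, with high ERN2 again below the rest. Its log2 fold changes at high against no ERN2 were -1.54 (SE 0.187, adjusted p = 9.21e-05) in control cells, or 2.91-fold lower, and -1.59 (SE 0.262, adjusted p = 0.00098) under stress, or 3.01-fold lower.

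LOXL2, a lysyl oxidase that acts on basement membrane collagen IV, spans chromosome 8, minus strand, 23297189 to 23425328, and shares 39546 bases with ENTPD4 on the same strand. In control cells it stood at 38.1, 33.3 and 34.8 CPM without ERN2, 30.7, 37.4 and 31.3 at low and 17.8, 20.4 and 18.3 at high ERN2. With thapsigargin it stood at 23.7, 23.9 and 25.2, then 22.2, 23.3 and 20.1, then 10.4, 7.96 and 9.09 CPM. High ERN2 lay below the other doses under each treatment, and all 3 stressed groups lay below the control group of the same dose. At high against no ERN2 LOXL2 was 1.93-fold lower in control cells (log2 fold change -0.95, SE 0.127, adjusted p = 0.000197) and 2.65-fold lower under stress (-1.40, SE 0.174, adjusted p = 0.000114). LOXL1 and LOXL2 were called in all 11 alternative fits of both comparisons.

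BMP1, the proteinase that trims procollagen and also activates LOX, spans chromosome 8, plus strand, 22164736 to 22212326. BMP1 shares 2373 bases with AC105206.1 on the same strand and 4210 with AC105206.3 on the other. It stood at 40.3, 37.1 and 37.4 CPM without ERN2, 38.8, 49.9 and 40.8 at low and 27.4, 28.5 and 25 at high ERN2 in control cells, and at 37.5, 36.4 and 43.9, then 36.4, 38.1 and 32.9, then 26.1, 19.8 and 19.0 with thapsigargin. High ERN2 lay below the other doses in both treatments. BMP1 fell 1.46-fold in control cells (log2 fold change -0.55, SE 0.12, adjusted p = 0.0079) and 1.81-fold under stress (-0.86, SE 0.173, adjusted p = 0.00374), the smallest of the called decreases in each.

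PCOLCE (chromosome 7, plus strand, 100602177 to 100608175) shares 2030 bases with the antisense gene PCOLCE-AS1. It had 25 to 91 reads per library, or 1.55 to 3.75 CPM over all 18. All groups overlapped with their uninduced group, and its log2 fold change at high against no ERN2 in control cells was 0.23 (SE 0.258, adjusted p = 0.584), with an interval from -0.29 to 0.74. It was called in 0 of the 10 comparisons.

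**Figure D3:**
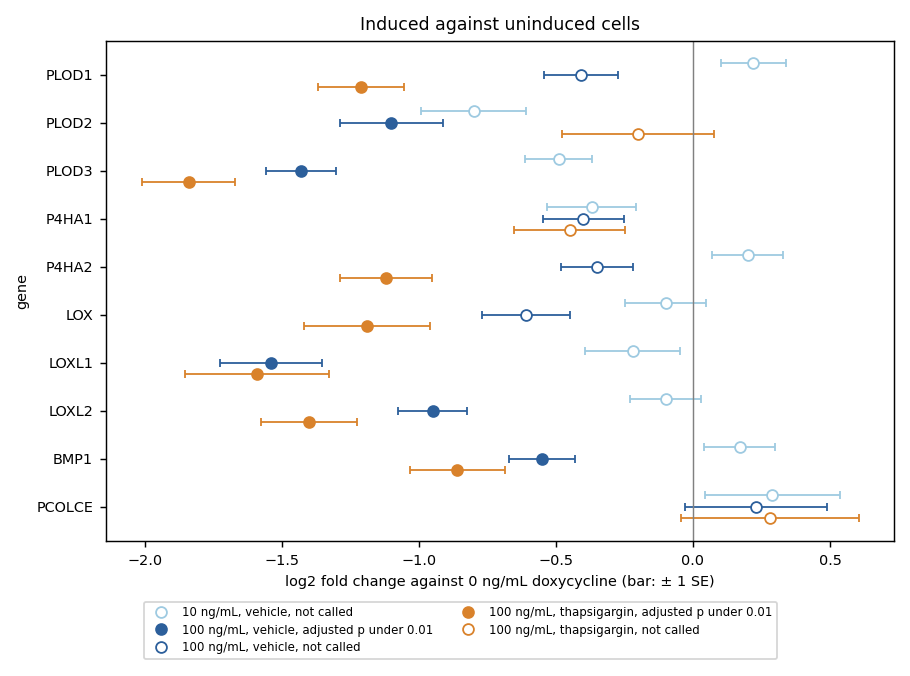
Log2 fold change against 0 ng/mL doxycycline (horizontal axis) of the 10 genes at 10 ng/mL with vehicle and at 100 ng/mL with vehicle or thapsigargin, with bars of 1 standard error and filled points for an adjusted p under 0.01. At 100 ng/mL, 5 filled points with vehicle and 7 with thapsigargin lie left of 0, and at 10 ng/mL none is filled.

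In control cells all 3 high ERN2 libraries lay below all 3 uninduced ones for 9 of the 10 genes, all but PCOLCE, where 16.1% of the genes tested did so. Under stress this held for 7 of 10, against 20.4% of genes. The median log2 fold change of the 10 genes was -0.58 in control and -1.15 in stressed cells, against -0.01 and 0.04 over all genes tested. BMP1 was called in 4 of its 11 alternative fits in control cells (adjusted p 0.000651 to 0.0519), and leaving out any library but high ERN2 control replicate 2 ended its call. PLOD2 was called in 9 of its 11 alternative fits (adjusted p 2.04e-07 to 0.0125), and the 2 that missed it included the fit with all 6 groups (0.0125).

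Under stress, leaving out any single no ERN2 library or high ERN2 replicate 2 ended the calls of LOX (adjusted p 3.39e-05 to 0.0245 over 11 alternatives) and BMP1 (5.11e-05 to 0.0311). Without high ERN2 replicate 3 BMP1 also missed the threshold, at 0.0125.

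The lower dose separated fewer of these genes. At low against no ERN2 in control cells 0 of 10 were called by edgeR, and 3 had an unadjusted p under 0.05. Of all 14497 genes tested, 0.193% were called in either direction, and 4421 had an unadjusted p under 0.05. DESeq2 called 2, PLOD2 and PLOD3, among 382 genes in all, against 28 with edgeR. PLOD2 had a log2 fold change of -0.80 (SE 0.192, adjusted p = 0.0713) and PLOD3 of -0.49 (SE 0.123, adjusted p = 0.0764), each with all low ERN2 libraries below the uninduced ones. The same held for 2220 of the 14497 genes. P4HA1 was at -0.37 (SE 0.164, adjusted p = 0.151). Without low ERN2 control replicate 1 PLOD2 was called (log2 fold change -1.03, adjusted p = 0.00066, range over its alternatives 0.00066 to 0.274), in a fit that called 2743 genes in all.

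From low to high ERN2 in control cells PLOD3, LOXL1 and LOXL2 were lower, 3 of the 10 against 2.43% of genes called lower. PLOD3 fell by 0.93 on the log2 scale (SE 0.144, adjusted p = 0.00504), LOXL1 by 1.32 (SE 0.220, adjusted p = 0.00693) and LOXL2 by 0.84 (SE 0.133, adjusted p = 0.00574). BMP1 was at -0.70 (SE 0.135, adjusted p = 0.0128), PLOD1 at -0.61 (adjusted p = 0.0322), P4HA2 at -0.54 (adjusted p = 0.0317) and LOX at -0.49 (adjusted p = 0.164), and their groups did not overlap. High ERN2 lay wholly below low ERN2 for 1877 of 14549 genes. For PLOD2, whose groups overlapped, the adjusted p was 0.535. Without low ERN2 replicate 2, high ERN2 replicate 1 or high ERN2 replicate 3 the count was 0, in fits that called 9, 21 and 0 genes in all. DESeq2 called 6, adding PLOD1, P4HA2 and BMP1, among 791 genes in all, against 356 with edgeR. These dose comparisons share libraries with the comparison of high and no ERN2, so they are not separate evidence.

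At low against no ERN2 under stress the reported edgeR fit, which leaves pairing out, called 0 of 10 genes, with 1 at an unadjusted p under 0.05. It called 0% of all 14509 genes, of which 612 had an unadjusted p under 0.05. PLOD3 was at -0.59 (SE 0.141, adjusted p = 0.538), with its low ERN2 libraries below the uninduced ones, as they were for 783 of the 14509 genes. Same-numbered libraries of these 2 groups deviated together, and with the replicate block 564 genes were called, among them PLOD3 (log2 fold change -0.59, adjusted p = 0.0002, range over 11 alternatives 0.0002 to 1). DESeq2 gave 0.0418 for PLOD3 and called 0 of the 10 genes and 39 in all.

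Thapsigargin alone, in cells without ERN2 induction, was followed by lower LOXL1 and LOXL2, 2 of the 10 genes, where 4.74% of 14397 genes were called lower. LOXL1 fell by 0.64 on the log2 scale (SE 0.138, adjusted p = 0.0053), a 1.56-fold decrease, and LOXL2 by 0.54 (SE 0.116, adjusted p = 0.00556), a 1.45-fold decrease. PLOD2 was at -0.67 (SE 0.196, adjusted p = 0.0256), with its stressed libraries below the unstressed ones. It was called in 3 of its 11 alternative fits (adjusted p 1.4e-06 to 0.102 over all 11), namely DESeq2, the fit without the filter and the replicate block. With the block 3571 of all 14397 genes were called, against 1611 in the reported fit. PLOD1 was at 0.10 (SE 0.122, adjusted p = 0.611) and P4HA2 at -0.05 (SE 0.126, adjusted p = 0.832), while PLOD3 and BMP1 overlapped between the treatments. LOX lay higher in all 3 stressed libraries than in the 3 unstressed ones, with an adjusted p of 0.21. Over all 14397 genes, the stressed libraries lay wholly below for 2881 and wholly above for 2878. LOXL1 lost its call without any 1 of 5 libraries, all but stress replicate 3 (adjusted p 0.0329 at most), and in the fit with all 6 groups (0.058). LOXL2 lost it without control replicate 1 or 3 or stress replicate 1 or 2 (0.0323 at most).

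At low ERN2 thapsigargin gave 0 calls among the 10 genes, with 3 at an unadjusted p under 0.05. Of all 14607 genes, 1.45% were called, and 3602 had an unadjusted p under 0.05. LOXL2 was at -0.60 (SE 0.136, adjusted p = 0.0288), LOXL1 at -0.70 (SE 0.199, adjusted p = 0.0627) and P4HA2 at -0.38 (SE 0.123, adjusted p = 0.0929), and none of these 3 overlapped between treatments. Over all 14607 genes, the stressed libraries lay wholly below for 1887 and wholly above for 2277. DESeq2 called 1, LOXL2, among 1051 genes in all. With the replicate block 3 of the 10 were called, P4HA2, LOXL1 and LOXL2. The block called 3620 of all 14607 genes, against 212 in the reported fit.

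At high ERN2 0 of 10 genes were called for thapsigargin, with 5 at an unadjusted p under 0.05. Of all 14427 genes, 0.201% were called, and 3892 had an unadjusted p under 0.05. LOXL2 was at -1.02 (SE 0.172, adjusted p = 0.0187), P4HA2 at -0.84 (SE 0.163, adjusted p = 0.028) and PLOD1 at -0.73 (SE 0.166, adjusted p = 0.0451). For these genes all 3 stressed libraries lay below the unstressed ones, as they did for PLOD3 (-0.52, adjusted p = 0.112) and LOXL1 (-0.71, adjusted p = 0.166). The same held for 2181 of the 14427 genes tested. PLOD2 was at 0.20 (SE 0.280, adjusted p = 0.654). DESeq2 called 3 of the 10, PLOD1, P4HA2 and LOXL2, among 729 genes in all. Without high ERN2 stress replicate 1 edgeR called 4, namely PLOD1, PLOD3, P4HA2 and LOXL2, with log2 fold changes of -0.83, -0.67, -0.96 and -1.14, but 2568 genes were then called in all, against 29 with that library.

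**Figure D4:**
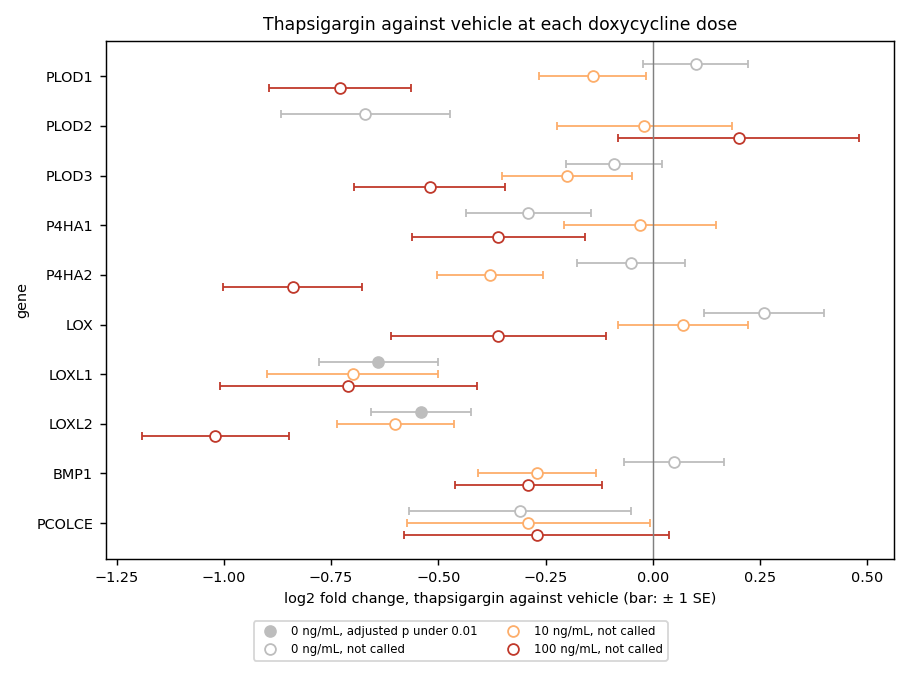
Log2 fold change of thapsigargin against vehicle (horizontal axis) for the 10 genes at 0, 10 and 100 ng/mL doxycycline, with bars of 1 standard error and filled points for an adjusted p under 0.01. The filled points are LOXL1 and LOXL2 at 0 ng/mL, and PLOD1 and P4HA2 lie at -0.73 and -0.84 at 100 ng/mL but near 0 at 0 ng/mL.

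The difference between stress responses was tested as an interaction. Between high and no ERN2 0 of 10 genes were called, and 4 had an unadjusted p under 0.05. Of all 14768 genes, 0.0406% were called, and 3651 had an unadjusted p under 0.05. The response of PLOD1 at high ERN2 minus that without ERN2 was -0.74 (log2, SE 0.198, adjusted p = 0.0744) and that of P4HA2 was -0.71 (SE 0.184, adjusted p = 0.0717). For LOXL2 the difference was -0.40 (SE 0.176, adjusted p = 0.182), and for PLOD2, in the other direction, 0.96 (SE 0.408, adjusted p = 0.168). DESeq2 called P4HA2 alone of the 10, among 340 genes in all. Without high ERN2 stress replicate 1 edgeR called PLOD1 (-0.87, adjusted p = 0.00979) and P4HA2 (-0.86, adjusted p = 0.00724), at the low end of ranges that reached 0.201 and 0.2, and 1286 genes in all, against 6 with that library. Between low and no ERN2 0 of 10 genes were called and 0 had an unadjusted p under 0.05, with 0% of 14857 genes called and 664 at an unadjusted p under 0.05. DESeq2 called 0 of the 10 there.

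Other genes of the pathway, from lists chosen with earlier results of these data known, are given by counts. Of 23 further collagen maturation genes 21 were tested at high against no ERN2 in control cells. Of the 21, 8 were lower and 0 higher, where 7.49% of all genes were called lower. The median log2 fold change of the list was -0.40, against -0.01 over all genes tested. Those with the largest changes were TLL2, a BMP1 relative (-1.81, adjusted p = 0.00142), ADAMTS2, the procollagen N-proteinase (-1.72, adjusted p = 9.62e-06), PCOLCE2, the paralogue of PCOLCE (-1.41, adjusted p = 0.00412), COLGALT1, which adds galactose to hydroxylysine (-1.22, adjusted p = 2.67e-05), and CRTAP of the prolyl 3-hydroxylation complex (-1.20, adjusted p = 1.33e-05). P4HB and SERPINH1, named after their values were seen as the partner subunit of P4HA1 and P4HA2 and the collagen chaperone, were at -0.04 (adjusted p = 0.861) and -0.28 (adjusted p = 0.125). Under stress both were lower at high ERN2, P4HB at -0.99 on the log2 scale (adjusted p = 0.000346) and SERPINH1 at -0.99 (adjusted p = 0.000319). There 13 of 22 of the list were lower and 0 higher, against 9% of all genes called lower. The median of the list was -0.97, against 0.04 over all genes tested.

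Of 14 collagen and elastin substrates 11 were tested, all of them collagens, since elastin (ELN) had at most 3 reads in any library. In control cells, where 7.49% of all genes were called lower, 9 were lower and 0 higher, with a median log2 fold change of -1.44. The largest changes were those of COL4A1 (-2.92, adjusted p = 6.52e-08), COL2A1 (-2.53, adjusted p = 4.26e-07), COL3A1 (-2.26, adjusted p = 2.28e-05), COL5A1 (-2.03, adjusted p = 1.31e-07) and COL4A2 (-1.95, adjusted p = 3.03e-07), chains of basement membrane, cartilage and fibrillar collagens. Under stress 8 of 11 were lower, with a median of -1.55, against 9% of all genes called lower and a median of 0.04. With thapsigargin in cells without ERN2 induction 7 of 11 were lower, against 4.74% of all genes.

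Of 10 hypoxia response genes 9 were tested, and 0 were called by edgeR at high against no ERN2 in either treatment. At an unadjusted p under 0.05 there were 2 in control cells and 1 under stress. Over all genes these were 4237 of 14444 and 5112 of 14358. DESeq2 called 1 in control cells and 0 under stress. Their medians were 0.08 and -0.15. The marker lists of other cell types are given beside these counts. The 7 fibroblast markers, of which COL1A1, COL1A2 and COL3A1 are collagens, summed to 26.9 to 34 CPM without ERN2 and 18.9 to 26.1 at high ERN2 in control cells, the 7 colon markers to 40.9 to 59.1 and 29.8 to 40.9, and the 4 HEK293 markers to 163 to 184 and 131 to 154. Under stress, in the same order of no and high ERN2, the fibroblast markers summed to 14.7 to 19.1 and 14.6 to 19.8 CPM, the colon markers to 42.5 to 48 and 21 to 42.1, and the HEK293 markers to 105 to 128 and 123 to 139. Their part in the results was not tested.

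**Figure D5:**
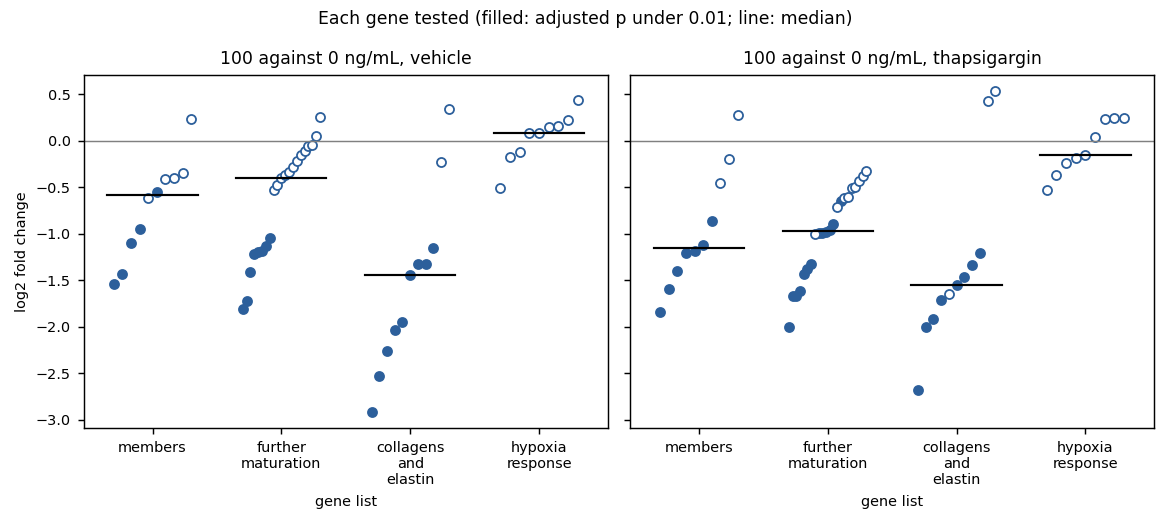
Log2 fold change at 100 against 0 ng/mL doxycycline (vertical axis) of every tested gene of 4 lists, with vehicle on the left and thapsigargin on the right, filled for an adjusted p under 0.01 and with a line at the median. The list of collagens and elastin, of which only collagens were tested, has the lowest medians, -1.44 and -1.55, and no hypoxia response gene is filled.

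Over the 18 libraries the log2 CPM of the 10 genes varied together to different degrees, given as a description since the points share groups and libraries. Pearson's r was 0.96 for LOXL1 and LOXL2, 0.96 for P4HA2 and LOXL2 and 0.95 for PLOD1 and P4HA2. PLOD2 went with P4HA1 (r = 0.83) rather than with PLOD1 (r = 0.09). PCOLCE had r of -0.39 to 0.25 with the other 9.

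Among 15023 genes, those with the highest r over the 18 libraries were listed for the 5 genes lower at high ERN2 in control cells. For PLOD3 they were ATP6AP1, IGFBP7 and PLXND1 (r = 0.99 each), and for LOXL2 they were CD63, NTN1 and SLC35B2 (r = 0.99 each). LOXL1 was nearest to ECEL1 (r = 0.99), HAPLN3 and COL6A2 (r = 0.98 each), the last a collagen VI chain. BMP1 was nearest to MGAT5B, PI4KA and PNPLA2 (r = 0.97 each), and PLOD2 to ACER3 (r = 0.96), TMEM117 and LMBRD1 (r = 0.95 each).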

How the data were processed

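RNA-Seq of 18 libraries was used. The authors sequenced KAPA stranded mRNA libraries (75-cycle single-end), ran STAR within VIPER, and deposited unnormalized read counts for each gene symbol. The submitters' processing notes name hg38, STAR and DESeq2. The STAR version, annotation and strand setting are not given in the sources used here. Columns were matched to samples through the labels, and 0 columns were left unused.

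Each comparison used only its own groups. The quasi-likelihood test of edgeR 4.0.16 (R 4.3.3) was run on TMM-normalized counts of genes that passed filterByExpr (minimum count 10). Calls took a Benjamini-Hochberg adjusted p, over every gene tested, under 0.01. Standard errors are the absolute log2 fold change over the root of F. CPM and correlations (prior count 2) used all 18 libraries. The tests of high against no ERN2 in control cells and of the high ERN2 interaction were also run on simulated counts of independent libraries. Such counts cannot check the effects of pairing or of single libraries.

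The 10 members and the gene lists were chosen with earlier results of these data known. All members are named. Of each list, at most 5 genes past the threshold at high against no ERN2 in control cells are named, by largest change. The 3 genes most correlated are named for members called there.

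Replicate numbers come from the labels. Correlations of same-numbered libraries' deviations from the group means were 0.40, 0.34 and 0.47 for low and no ERN2 under stress, where they were taken to pair the libraries. The reported fit there left the pairing out, and the fit with the replicate block is given beside it. In each other comparison at least 1 of the 3 correlations was under 0.1, and the reported fits left any pairing out. Thapsigargin against control gave 0.08, 0.20 and 0.27 without ERN2, 0.50, -0.03 and 0.44 at low and -0.34, -0.11 and 0.29 at high ERN2. Whether libraries are paired there is not known.

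Alternatives were DESeq2 1.42.0, RLE size factors, no filter, a fit with all 6 groups, a replicate block, a threshold of 0.05, and each library left out. Positions and transcripts came from GENCODE 29, promoters from RefSeq (GRCh38.p14). Library totals were 14876416 to 24652240 reads, and PCOLCE had the fewest reads of the members. Figures used matplotlib 3.10.9.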

Additional observations from a re-analysis of the deposited data

How the results depend on the processing

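Of 132 alternative counts of called members 100 stayed within 1.5 times the reported count. The cause of each change below was not tested. At high against no ERN2 the count was 5 in control cells, 3 in the fit with all 6 groups and 4 to 5 with each library left out, and under stress it was 7 in the reported fit and 5 to 7 with each library left out. For high against low ERN2 (3 reported) it was 6 at a threshold of 0.05, 5 without the filter, 6 in the fit with all 6 groups, 6 with DESeq2 and 0 to 5 with each library left out. At low against no ERN2 in control cells (0 reported) no filter gave 1, DESeq2 2 and leaving out libraries 0 to 1. For thapsigargin the fit with all 6 groups gave 1 without ERN2 (2 reported, 0 to 2 with each library left out), 1 at low ERN2 and 3 at high ERN2 (0 reported for both). The threshold of 0.05 gave 1 and 3 and DESeq2 1 and 3 at low and high ERN2, no filter gave 1 at high ERN2, and leaving out libraries gave 0 at low and 0 to 4 at high ERN2. The interaction at high ERN2 (0 reported) gave 1 with DESeq2 and 0 to 2 with each library left out.

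With the replicate block the count was 3 at high against no ERN2 in control cells, where PLOD2 (adjusted p = 0.0124) and BMP1 (0.0519) missed the threshold, 6 at high against low ERN2, 3 for thapsigargin at low ERN2 and 1 at low against no ERN2 under stress. Over all genes the block called 750, 1224, 3620 (of 14607 tested) and 564 in these comparisons, in that order. The reported fits called 1203, 356, 212 and 0. In the other comparisons the block left the count of members within 1.5 times, adding PLOD2 for thapsigargin without ERN2 (1.4e-06). There it called 3571 of 14397 genes in all, against 1611 in the reported fit. Outside low against no ERN2 under stress, libraries share only a number, and 1 to 5 of 6 libraries correlated best with their own number, as a hint from the data.

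Of 552 alternative log2 fold changes of members 469 kept direction and side of the threshold, 37 missed it, 40 passed it instead, and 6, each leaving out 1 library, changed sign. Of 396 alternative counts over the other lists 311 stayed within 1.5 times. PCOLCE ran from -0.01 to 0.41 at high against no ERN2 in control cells. P4HA2 ran from -0.12 to 0.02 (0.01 without stress replicate 1) and PLOD1 from -0.02 to 0.20 for thapsigargin without ERN2. PLOD2 ran from -0.16 to 0.44 for thapsigargin at high ERN2 and from -0.56 to 0.08 at high against no ERN2 under stress.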
